A study of Mus musculus with 8 samples.

Results

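The cytochrome P450 genes outside the CYP1 and CYP26 families were described in uteri of mice that had breathed electronic cigarette aerosol and of mice that had breathed room air. Members were all genes whose array symbol is Cyp followed by a family number, a subfamily letter and a gene number, leaving out the Cyp1a, Cyp1b and Cyp26 symbols, each read on its probe set of highest mean. The rule found 83 genes of 19505 with a symbol, in 13 families and 31 subfamilies, and each had 1 probe set. It used no measured difference between the groups. Cyp51, the members with a trailing letter such as Cyp4a12a, and pseudogenes fall outside it, and Cyp19a1, the oestrogen-forming aromatase, was not analysed here.

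All 8 animals were C57BL/6J wildtype females made pseudopregnant by vasectomised males, and uterus RNA was collected at day 4.5, with day 0.5 set by the plug. The 4 exposed mice received aerosol with 24 mg/mL nicotine in propylene glycol and vegetable glycerin at 55:45, without flavourings, from an atomizer set to 245 °C. They were exposed for 3 h a day at 2 puffs of about 2 s per minute, first for 4 weeks with 5 exposure days each, and after mating on every day up to collection. The 4 sham mice breathed room air, so nicotine and its carrier were never given apart, and no embryo was present in either group. Each array held 1 mouse, and p-values measure the spread between these mice. Values are log2 signals. Probe sets differ in how strongly they bind their target, so no member's level is set against another's, and each is read against its own values in other mice.

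Cytochrome P450s are heme enzymes that insert an oxygen atom into their substrate with electrons from a reductase. Families CYP1 to CYP3 are best known for clearing drugs and foreign compounds in the liver, CYP4 enzymes hydroxylate fatty acids and leukotrienes, and the higher-numbered families mostly act on sterols, bile acids, steroid hormones and vitamin D. Several CYP2 and CYP4 enzymes also turn arachidonic acid into epoxides and hydroxy acids that act on vessels and smooth muscle. In mice, Cyp2a5 oxidises nicotine, and the receptors PXR, CAR and PPARα switch on the Cyp3a, Cyp2b and Cyp4a genes, respectively, in the liver.

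The widest spread between mice lay in a pair of neighbouring genes, Cyp3a25 and Cyp3a59, and their upstream sequences are shown because the pair read high and low in the same mice. The 250 bases before each start are given 5′ to 3′ on the gene's own strand, from RefSeq on GRCm38.p6, at chr5:146009618-146009867 on the minus strand for Cyp3a25 and chr5:146079008-146079257 on the plus strand for Cyp3a59. Capitals mark the 11 positions at which the sequences differ.
Cyp3a25: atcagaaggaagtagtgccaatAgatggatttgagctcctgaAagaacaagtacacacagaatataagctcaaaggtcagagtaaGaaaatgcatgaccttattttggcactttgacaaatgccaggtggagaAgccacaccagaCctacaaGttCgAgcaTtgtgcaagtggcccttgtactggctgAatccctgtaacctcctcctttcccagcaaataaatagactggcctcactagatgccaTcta
Cyp3a59: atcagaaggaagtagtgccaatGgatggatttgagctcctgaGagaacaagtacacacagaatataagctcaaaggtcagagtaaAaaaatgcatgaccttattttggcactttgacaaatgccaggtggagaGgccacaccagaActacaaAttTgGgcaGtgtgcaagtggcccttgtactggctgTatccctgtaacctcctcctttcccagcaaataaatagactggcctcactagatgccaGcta
These were 95.6% identical. Of the 83 members, 62 had an entry in the RefSeq promoter table, and the median identity over their 1891 pairs was 30.5%. Only 5 pairs reached 80%: this one, Cyp2a4 with Cyp2a5 (98.4%), Cyp2b9 with Cyp2b13 (99.2%), Cyp2c37 with Cyp2c50 (80.2%) and Cyp3a16 with Cyp3a44 (95.9%). The hexamer AGGTCA, the textbook half-site of nuclear receptors, was searched on both strands. It occurred 2 times each in the windows of Cyp3a25, Cyp3a59 and Cyp3a57, in 15 of the 62 member windows and in 13.8% of 27025 promoters of that length. The related hexamer AGTTCA, also searched on both strands, occurred in 8 member windows, in 11.9% of all promoters and in none of those 3. A match describes the letters and not a bound site.

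No member passed the test. Exposed mice were compared with sham mice by limma over 22206 probe sets. In it, 0 of 83 members and 0% of all probe sets had a Benjamini-Hochberg adjusted p under 0.05. The smallest adjusted p among members was 0.838. At an unadjusted p under 0.05 stood 5 members (6.02%), Cyp2j9, Cyp2d34, Cyp4f13, Cyp2u1 and Cyp27a1, all with the higher mean in exposed mice, against 5.42% of all probe sets, of which 2.91% were higher and 2.5% lower. Groups did not overlap in 2 members (2.41%), Cyp2d34 and Cyp4f13, against 2.73% of all probe sets, of which 1.38% were higher and 1.35% lower. Both shares lie near those of the whole array. With single mice left out, the first count ran from 2 without sham mouse 2 (2.41%, against 3.27% of all probe sets) to 7 without exposed mouse 1 (8.43%, against 11.5%). The second ran from 2 without exposed mouse 2 (2.41%, against 4.83%) to 7 without exposed mouse 1 (8.43%, against 10.2%) or without sham mouse 3 (8.43%, against 5.18%). Within 1.5-fold lay 80 members. The 3 beyond it (3.61%, against 1.09% of probe sets) were Cyp2j9 and Cyp2e1, higher in exposed mice, and Cyp3a25, lower. Over all probe sets, 0.581% were higher and 0.513% lower by that much.

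The exposed mean was higher for 48 members (57.8%, against 50.5% of probe sets), and the median difference over members was 0.03 on the log2 scale, against 0.0014 over all probe sets. Most members read low: 67 of 83 (80.7%) had a mean below the array median of 7.08, and 50 lay below the 25th percentile of 5.48. Among the 16 members at or above the array median, 12 had the higher mean in exposed mice (75%, against 48.8% of probe sets at that level). Of those 16, 3 had an unadjusted p under 0.05 (18.8%, against 6.81%). Their median difference was 0.16, against -0.0043. The SD within a group was larger in exposed mice for 48 members, 57.8% against 65.8% of all probe sets.

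**Figure D1:**
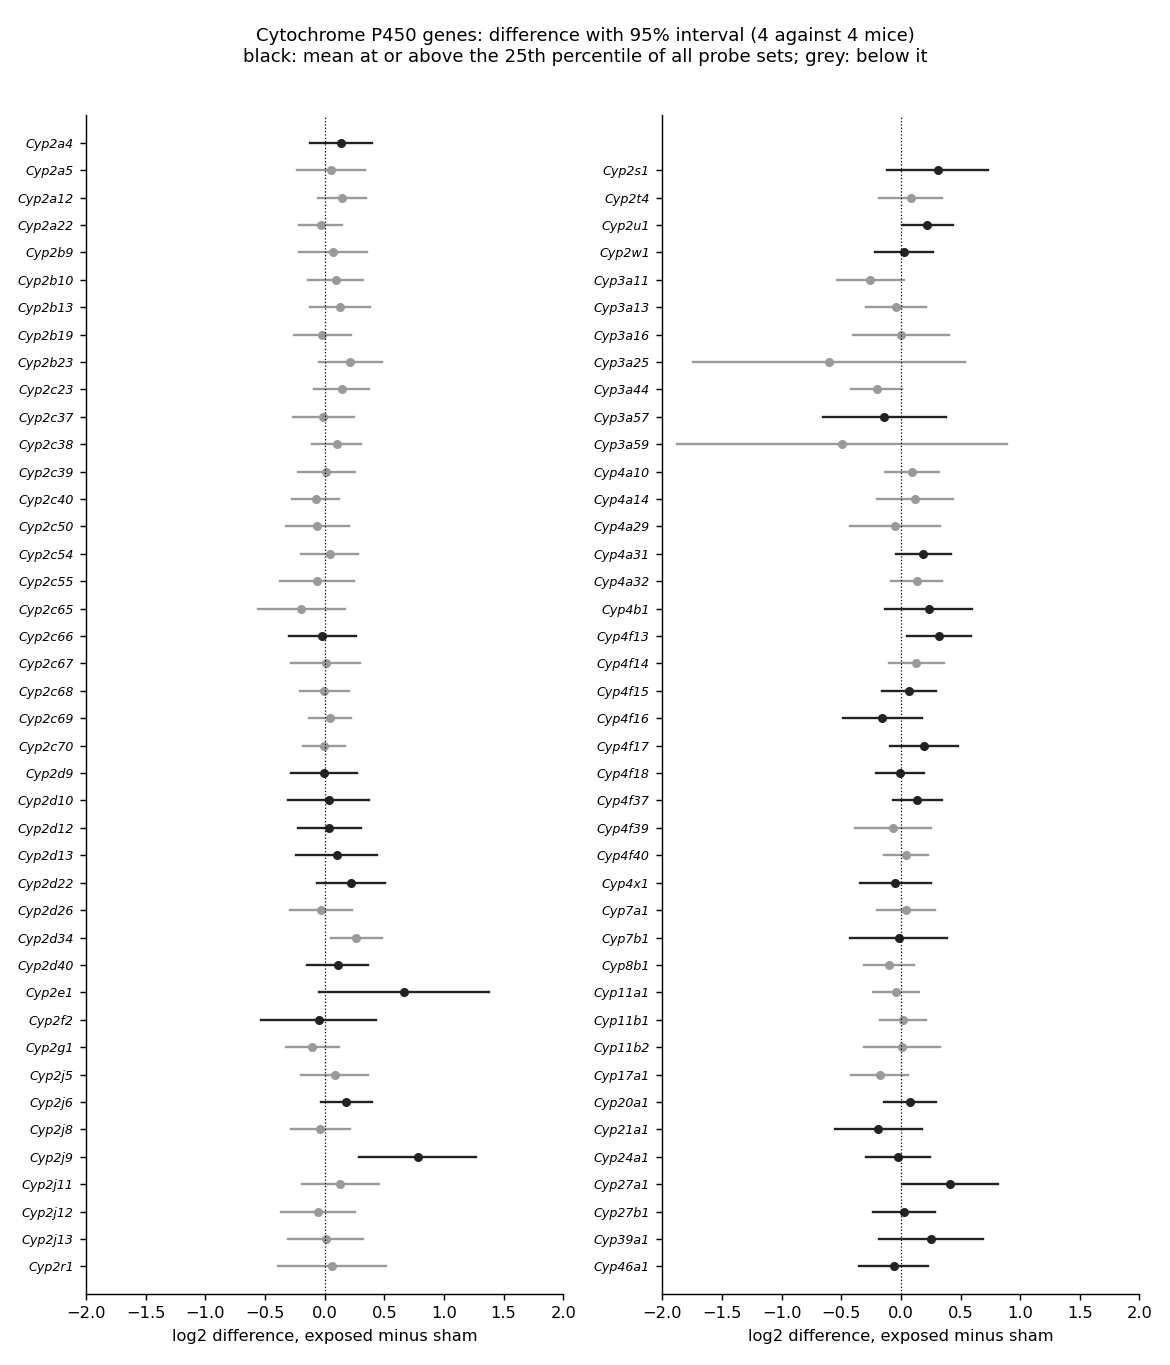
Exposed minus sham difference (log2) of each of the 83 P450 genes, with lines for the 95% interval from limma, black for genes with a mean signal at or above the 25th percentile of all probe sets and grey for those below it. Differences run from -0.60 in Cyp3a25 to 0.78 in Cyp2j9, and the intervals of Cyp3a25 and Cyp3a59 are the widest.

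Exposed mice 2 and 4 stood apart in these readings. Taken over the 16 brighter members, the median deviation from the sham mean was -0.09, -0.07, 0.10 and 0.05 in sham mice 1 to 4, and -0.03, 0.34, 0.06 and 0.26 in exposed mice 1 to 4. These 2 mice stood above all others, and exposed mice 1 and 3 lay inside the sham range. Each sham mouse is part of the sham mean, which makes sham deviations smaller, whereas exposed mice are not part of it. The arrays of exposed mice 2 and 4 were also the least like the rest (mean correlation with the other arrays 0.982 and 0.977, against 0.986 to 0.987), and they held the highest value of 20.5% and 22.9% of members, against 15.5% and 21.6% of all probe sets. With both left out, an alternative chosen after the data were seen, the median difference over all 83 members went from 0.03 to 0.01. That value is not given for the 16 brighter members, whose median difference with all mice was 0.16.

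**Figure D2:**
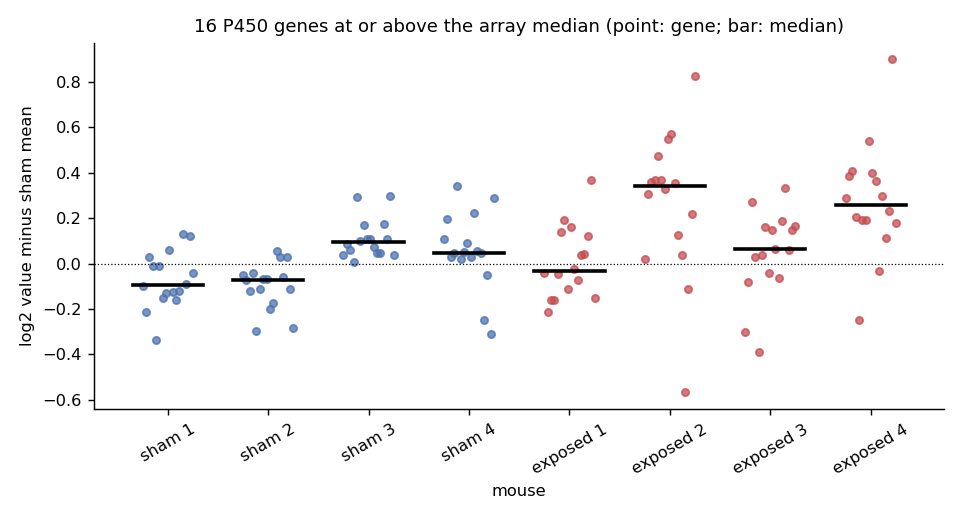
Log2 value minus the sham mean of the 16 P450 genes at or above the array median, 1 column per mouse, with a point per gene and a bar at the median over genes. The bars of exposed mice 2 and 4 lie at 0.34 and 0.26, and those of the other 6 mice between -0.09 and 0.10.

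**Figure D3:**
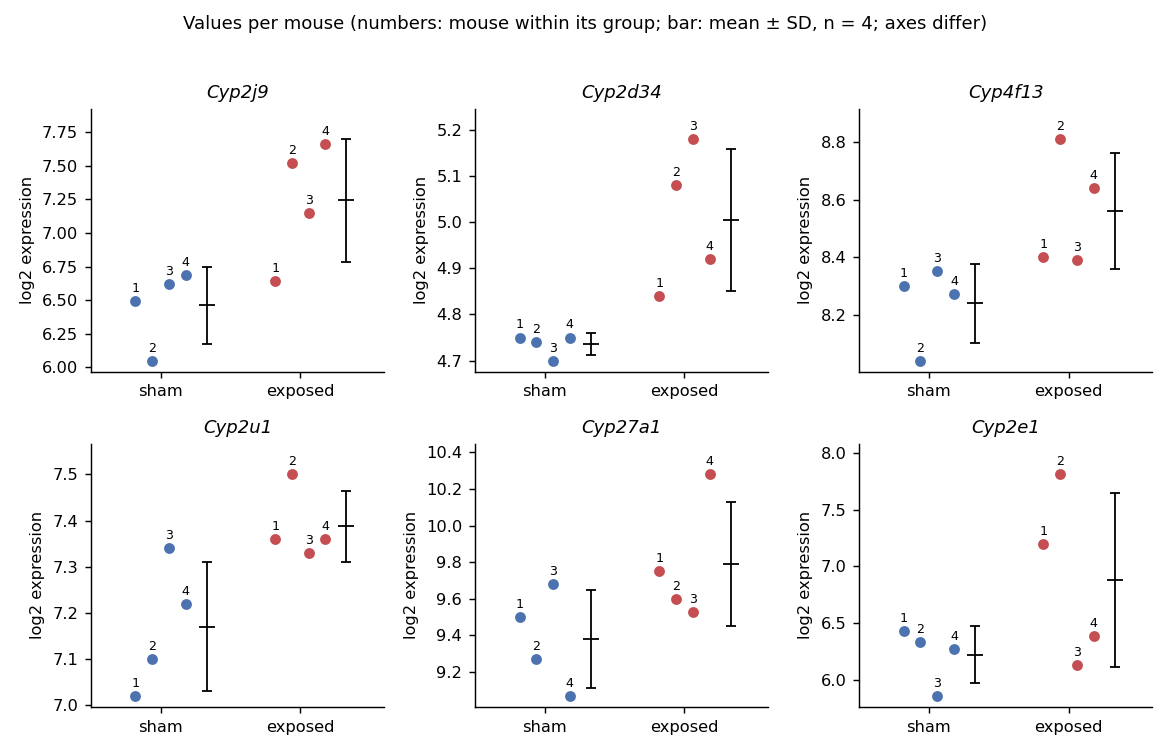
Log2 signal of 6 P450 genes in each mouse, with the mouse number within its group above each point and the group mean ± SD (n = 4) beside the points, on axes that differ between panels. Sham and exposed points are apart in Cyp2d34 and Cyp4f13 and overlap in the other panels.

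Among the arachidonic acid metabolising members, Cyp2j9, of the CYP2J epoxygenase and hydroxylase subfamily, had the largest difference. It read 6.49, 6.05, 6.62 and 6.69 in sham mice 1 to 4 and 6.64, 7.52, 7.15 and 7.66 in exposed mice 1 to 4. Exposed mice 2, 3 and 4 read above every sham mouse and exposed mouse 1 read within the sham range. Group means were 6.46 ± 0.29 and 7.24 ± 0.46 (SD, n = 4), a difference of 0.78 ± 0.22 (SE) or 1.72-fold, with a 95% interval of 0.29 to 1.27 and a limma adjusted p = 0.838. Leaving out single mice gave 0.64 to 0.98, with an unadjusted p under 0.05 each time, and leaving out exposed mice 2 and 4 gave 0.43. Cyp2j6, of the same subfamily and above the array median, read 7.91, 7.81, 8.02 and 7.94 in sham and 8.06, 8.29, 7.96 and 8.11 in exposed mice. Its groups overlapped through exposed mouse 3 alone (0.18 ± 0.10, 95% interval -0.03 to 0.40). The other 5 of the 7 CYP2J members lay below the 25th percentile, and the subfamily had 5 higher and 2 lower means.

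Cyp4f13, of the CYP4F fatty acid and leukotriene hydroxylases, read 8.30, 8.04, 8.35 and 8.27 in sham mice and 8.40, 8.81, 8.39 and 8.64 in exposed mice. Every exposed mouse read above every sham mouse, although exposed mice 1 and 3 lay only just above sham mouse 3. The difference was 0.32 ± 0.12 (1.25-fold, 95% interval 0.05 to 0.58, adjusted p = 0.838), 0.24 without exposed mouse 2 and 0.16 without exposed mice 2 and 4. Cyp4f37 read 7.62, 7.77, 7.79 and 7.79 against 7.78, 7.78, 7.93 and 8.04 (0.14 ± 0.09, 95% interval -0.07 to 0.34), with overlapping groups. Of the 9 CYP4F genes 6 had higher and 3 lower means.

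Cyp2u1, a fatty acid hydroxylase, read 7.02, 7.10, 7.34 and 7.22 in sham mice and 7.36, 7.50, 7.33 and 7.36 in exposed mice, and the groups overlapped through sham mouse 3. The difference was 0.22 ± 0.10 (95% interval 0.01 to 0.43), and it kept an unadjusted p under 0.05 in 1 of the 8 fits without a single mouse. Cyp4b1, which hydroxylates fatty acids and activates some foreign compounds, read 7.37, 7.43, 7.61 and 7.59 against 7.39, 8.05, 7.46 and 8.04. Only exposed mice 2 and 4 read above the sham mice, and the difference of 0.23 ± 0.16 (95% interval -0.13 to 0.60) was -0.08 without them. The CYP4A members, fatty acid hydroxylases driven by PPARα in the liver, all lay below the array median, with 4 higher means and 1 lower. Cyp4a31 read 5.30, 5.55, 5.35 and 5.57 against 5.47, 5.78, 5.62 and 5.66 (0.19 ± 0.10, 95% interval -0.04 to 0.42). Cyp4x1 ranged from 5.64 to 6.17 over the 8 mice, with a difference of -0.05 ± 0.13.

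Among the sterol and bile acid members, Cyp27a1, the mitochondrial enzyme that hydroxylates the cholesterol side chain, read 9.50, 9.27, 9.68 and 9.07 in sham mice and 9.75, 9.60, 9.53 and 10.28 in exposed mice. Exposed mouse 4 read highest by a wide margin, and exposed mice 2 and 3 lay within the sham range. The means were 9.38 ± 0.27 and 9.79 ± 0.34 (SD, n = 4), a difference of 0.41 ± 0.18 (1.33-fold, 95% interval 0.01 to 0.81, adjusted p = 0.838), and 0.25 without exposed mouse 4. Its unadjusted p stayed under 0.05 in 3 of the 8 fits without a single mouse, and that of Cyp4f13 in 5. Cyp39a1, an oxysterol hydroxylase of bile acid synthesis, read 8.82, 8.58, 8.90 and 9.15 against 8.71, 9.69, 9.03 and 9.04. Exposed mouse 2 alone read above the sham range, and the difference of 0.25 ± 0.20 was 0.06 without it.

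Cyp7b1, which hydroxylates oxysterols and steroids, read 8.0, 7.81, 8.04 and 7.62 in sham and 7.91, 7.30, 8.20 and 7.98 in exposed mice. The exposed mice spanned the sham range and the means differed by -0.02 ± 0.18 (95% interval -0.42 to 0.39). Cyp46a1, the cholesterol hydroxylase of the brain, read 6.77, 6.75, 6.66 and 6.87 against 6.58, 6.54, 6.59 and 7.10 (-0.06 ± 0.13), with exposed mouse 4 highest and the other exposed mice lowest of all. The liver's bile acid enzymes Cyp7a1, which is rate limiting, and Cyp8b1, which sets the share of cholic acid, ranged from 4.29 to 4.73 and from 4.09 to 4.41 over all mice. Their differences were 0.04 ± 0.11 and -0.10 ± 0.09.

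The members of steroid hormone synthesis all lay below the array median, and none had an unadjusted p under 0.05. Cyp11a1, which cuts the cholesterol side chain in the first step, ranged from 3.85 to 4.12 (difference -0.04 ± 0.09). Cyp11b1 and Cyp11b2, the last enzymes of glucocorticoid and aldosterone synthesis, ranged from 4.83 to 5.06 and from 4.03 to 4.59, with differences of 0.02 ± 0.09 and 0.01 ± 0.14. Cyp17a1, needed for androgens, read 5.12, 5.27, 4.98 and 5.05 against 4.82, 5.10, 4.76 and 5.03 (-0.18 ± 0.11, 95% interval -0.42 to 0.06). Cyp21a1, needed for adrenal steroids, read 5.38, 5.36, 5.70 and 6.11 against 5.40, 5.48, 5.62 and 5.30 (-0.19 ± 0.16, 95% interval -0.55 to 0.17), with sham mouse 4 highest. Markers of ovary and of adrenal cortex, lists that contain some of these members, averaged 5.44 to 5.74 and 5.79 to 6.03 over all mice, and 7 of 8 and 7 of 9 of their measured genes lay below the array median.

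The vitamin D enzymes differed by less than their spread between mice. Cyp27b1, which makes the active hormone, ranged from 6.45 to 6.92 (difference 0.03 ± 0.12, 95% interval -0.23 to 0.29), and Cyp24a1, which breaks it down, from 6.42 to 6.89 (-0.03 ± 0.12, -0.29 to 0.24). Cyp2r1, which performs the first activating hydroxylation, read 5.17, 5.19, 5.05 and 5.00 in sham and 5.74, 4.99, 5.32 and 4.61 in exposed mice. The exposed mice spread to both sides of the sham mice (SD 0.48 against 0.09), and the means differed by 0.06 ± 0.20.

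Cyp2e1, the ethanol-oxidising P450 that is strong in liver and also present in fat, had the largest spread in exposed mice of any CYP2 member. It read 6.43, 6.33, 5.86 and 6.27 in sham mice and 7.20, 7.81, 6.13 and 6.39 in exposed mice. Exposed mice 1 and 2 read above every other mouse, and exposed mice 3 and 4 read within the sham range. The means were 6.22 ± 0.25 and 6.89 ± 0.77 (SD, n = 4), a difference of 0.66 ± 0.32 or 1.58-fold (95% interval -0.05 to 1.38, adjusted p = 0.838). Without exposed mice 1 and 2, an alternative chosen after the data were seen, the difference was 0.04, and without exposed mouse 2 alone it was 0.35.

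The mean over adipocyte markers was highest in the same mice, through some of its genes. Of 16 listed genes 15 were measured, 10 of them below the array median and none past the adjusted threshold, and 11 had the higher mean in exposed mice. Their mean log2 signal was 6.18, 6.08, 6.22 and 6.34 in sham and 6.62, 6.89, 6.20 and 6.19 in exposed mice. Fabp4, the fatty acid binding protein of fat cells, read 5.50, 5.06, 5.42 and 6.56 against 7.41, 8.87, 5.45 and 5.63. Retn, the fat cell hormone resistin, read 5.27, 5.44, 5.52 and 5.76 against 7.15, 7.75, 5.35 and 5.71. Exposed mice 1 and 2 read highest for both. Above every sham mouse lay 5 of the 15 genes in exposed mouse 1 (Adipoq, Plin1, Cidec, Retn and Fabp4), 9 in exposed mouse 2, 2 in exposed mouse 3 and 5 in exposed mouse 4. Those 5 genes were also above every sham mouse in exposed mouse 2. Lipe, the hormone-sensitive lipase, read 7.69, 7.69, 7.23 and 7.29 in sham and 7.17, 7.24, 7.60 and 7.39 in exposed mice, and was low in exposed mice 1 and 2. Whole uterus was measured, so more cells of a type and more RNA per cell cannot be told apart, and the part of fat in the Cyp2e1 values was not tested.

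**Figure D4:**
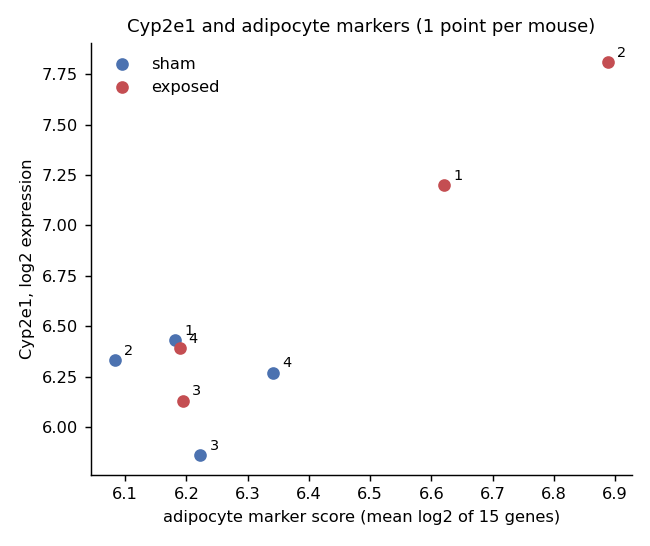
Log2 signal of Cyp2e1 against the mean log2 signal of the 15 measured adipocyte markers, 1 point per mouse with its number within the group. Exposed mice 1 and 2 lie apart at the upper right, at 7.20 and 7.81 for Cyp2e1, and the other 6 mice lie between 5.86 and 6.43.

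All 7 CYP3A genes, the drug-metabolising subfamily driven by PXR in the liver, had the lower mean in exposed mice, by 0.00 to 0.60. Their median difference was -0.20, and none had an unadjusted p under 0.05 in limma. For comparison, 50.5% of all probe sets had the higher mean in exposed mice. Cyp3a16 and Cyp3a13 differed by only -0.0002 and -0.04. Cyp3a25 read 6.75, 6.32, 4.91 and 4.29 in sham mice 1 to 4 and 5.23, 4.22, 5.64 and 4.76 in exposed mice 1 to 4. Cyp3a59 read 6.63, 6.57, 4.78 and 3.80 against 4.85, 4.39, 6.10 and 4.47. Sham mice 1 and 2 read highest for both genes and exposed mouse 3 came next, whereas sham mouse 4 and exposed mouse 2 read lowest, so most of the spread lay within the sham group.

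The sham SD was 1.16 for Cyp3a25 and 1.39 for Cyp3a59, against a median of 0.149 over members. The differences between groups were -0.60 ± 0.51 (95% interval -1.74 to 0.53) and -0.49 ± 0.62 (95% interval -1.88 to 0.89), and both were smallest in size without sham mouse 1 (-0.21 and -0.10) and largest without sham mouse 4 (-1.03 and -1.04). Without exposed mice 2 and 4 they were -0.13 and 0.03. Over the 8 mice the readings of the pair had a Pearson r of 0.96, given as a description. The other pairs at or above 80% identity had r of -0.01 for Cyp2a4 and Cyp2a5, 0.56 for Cyp2b9 and Cyp2b13, 0.04 for Cyp2c37 and Cyp2c50 and 0.25 for Cyp3a16 and Cyp3a44. The genes of those pairs ranged over only 0.44 to 0.82 between mice, against 2.53 and 2.83 for Cyp3a25 and Cyp3a59. With so little range, their r cannot be set against that of this pair. Probe sequences were not used here, so a probe set that reads both genes of a pair cannot be told apart from 2 genes that vary together.

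**Figure D5:**
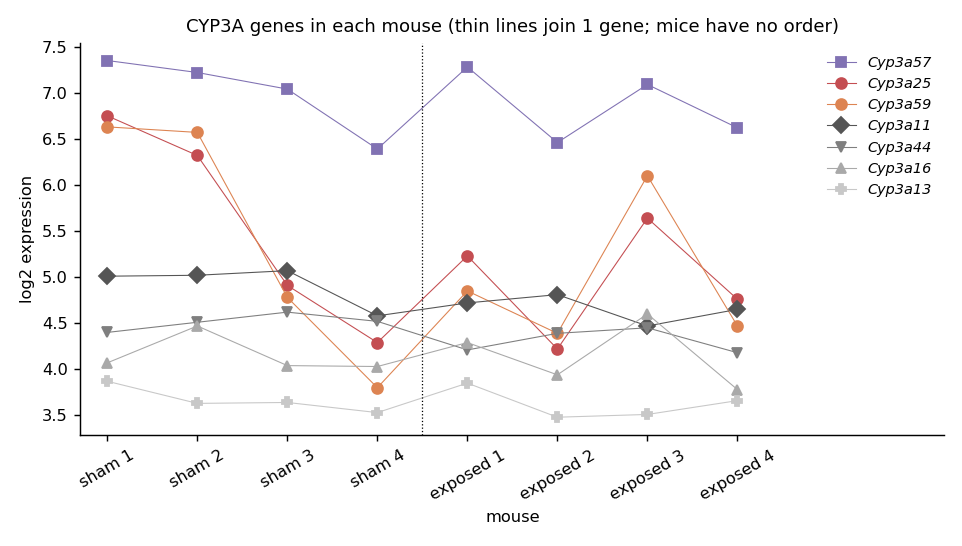
Log2 signal of the CYP3A members in each mouse, with thin lines joining 1 gene's readings across mice that have no order. Cyp3a25 and Cyp3a59 run from 4.22 to 6.75 and from 3.80 to 6.63 and peak in sham mice 1 and 2.

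Cyp3a57 read 7.35, 7.22, 7.04 and 6.39 in sham and 7.28, 6.46, 7.09 and 6.62 in exposed mice. Sham mouse 4 and exposed mouse 2 were again lowest, over a narrower range of 0.96. The difference was -0.14 ± 0.23 (95% interval -0.66 to 0.38), and it was 0.18 without exposed mice 2 and 4. Cyp3a11, the main liver CYP3A of the mouse, read 5.01, 5.02, 5.07 and 4.58 against 4.72, 4.81, 4.47 and 4.65. Sham mouse 4 alone lay within the exposed range, and the difference was -0.26 ± 0.13 (95% interval -0.54 to 0.03). Cyp3a44 read 4.40, 4.51, 4.62 and 4.52 against 4.21, 4.39, 4.45 and 4.18 (-0.20 ± 0.10, 95% interval -0.42 to 0.01), with overlap through exposed mouse 3 and sham mouse 1. Of the 7 CYP3A genes, 6 had a mean below the 25th percentile of signal, Cyp3a25 and Cyp3a59 among them, and only Cyp3a57 lay above it. The mean over hepatocyte markers stood high in no mouse (5.87 to 6.17), and 12 of 14 genes lay below the array median. Ttr and Serpina1a did not. Ttr, on the gland list too, read 7.96, 7.66, 7.48 and 6.32 in sham and 7.11, 6.44, 7.51 and 6.89 in exposed mice. Serpina1a ranged from 7.24 to 8.23. The gland epithelium score was 7.82, 7.86, 7.51 and 7.30 in sham and 7.27, 7.24, 8.15 and 8.67 in exposed mice. Its genes did not move together. In exposed mouse 4, Prss28, Prss29 and Spink1 read 12.64, 12.04 and 12.22, whereas Foxa2, Cxcl15, Sox17 and Aldh1a1 read lowest of all mice. Wfdc3 read 7.82, 7.90, 6.99 and 6.26 in sham and 6.74, 6.56, 7.91 and 6.93 in exposed mice. It was lowest in sham mouse 4 and exposed mouse 2, like Cyp3a25 and Cyp3a59. Aldh1a1 went the other way and read highest in those mice (9.63 and 9.38). Of the 10 genes, 4 had higher and 6 lower means in exposed mice. The part of glands in the CYP3A readings was not tested.

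The CYP2D subfamily, which in humans clears many drugs through CYP2D6, had 8 members with 6 higher and 2 lower means. Cyp2d34 read 4.75, 4.74, 4.70 and 4.75 in sham and 4.84, 5.08, 5.18 and 4.92 in exposed mice, with no overlap. The difference was 0.27 ± 0.09 (1.20-fold, 95% interval 0.05 to 0.48, adjusted p = 0.838), 0.21 to 0.32 without single mice, at a signal below the 25th percentile, with an unadjusted p under 0.05 in 7 of those 8 fits. Cyp2d22, the mouse counterpart of CYP2D6, read 8.68, 8.53, 8.71 and 8.68 against 8.49, 9.01, 8.92 and 9.06. Exposed mice 2, 3 and 4 read above all sham mice and exposed mouse 1 read below them (0.22 ± 0.13, 95% interval -0.06 to 0.51). Cyp2d13 read 9.10, 9.24, 9.40 and 9.51 against 9.10, 9.62, 9.23 and 9.70, and Cyp2d9 read 7.99, 8.04, 8.13 and 8.20 against 8.05, 8.11, 7.79 and 8.38. Both overlapped widely, with differences of 0.10 ± 0.15 and -0.01 ± 0.12.

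Of the remaining CYP2 members, Cyp2s1, a P450 of epithelial linings, read 6.56, 6.70, 6.69 and 6.37 in sham and 6.36, 6.90, 6.90 and 7.41 in exposed mice. Exposed mice 2, 3 and 4 read above the sham mice, exposed mouse 1 read lowest, and the difference of 0.31 ± 0.19 (95% interval -0.12 to 0.73) was 0.14 without exposed mouse 4. Cyp2f2, the naphthalene-activating P450 of the airway lining, read 7.42, 7.46, 8.05 and 8.10 against 7.71, 8.23, 7.37 and 7.51. Each group held both high and low mice (-0.05 ± 0.22). Cyp20a1, whose substrate is unknown, varied least of the brighter members named, from 8.41 to 8.75 (0.07 ± 0.10).

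The CYP2A, CYP2B and CYP2C genes, which make up much of the liver's foreign-compound clearance, read low: 3 of 4, 5 of 5 and 13 of 14 lay below the 25th percentile, and none reached the array median. Cyp2a4, a steroid hydroxylase, read 5.56, 5.90, 5.85 and 6.06 against 6.07, 5.85, 5.90 and 6.09 (0.14 ± 0.12). The nicotine-oxidising Cyp2a5, singled out for this role after its values were seen, read 5.07, 4.98, 4.80 and 4.97 against 4.99, 4.71, 5.32 and 5.01. The exposed mice spanned the sham range and the difference was 0.05 ± 0.13 (95% interval -0.23 to 0.34). The CAR target Cyp2b10 and the PPARα targets Cyp4a10 and Cyp4a14, singled out in the same way, had differences of 0.09 ± 0.10, 0.09 ± 0.10 and 0.11 ± 0.14, each with overlapping groups. Cyp2b23 read 5.28, 5.03, 5.47 and 5.38 against 5.43, 5.41, 5.44 and 5.73 (0.21 ± 0.12). The 14 CYP2C genes had 6 higher and 8 lower means, and Cyp2c66 ranged from 5.21 to 5.70 (-0.02 ± 0.13). Cyp2g1, Cyp2t4 and Cyp2w1 ranged from 4.10 to 4.52, 3.99 to 4.41 and 5.85 to 6.27, with differences of -0.10, 0.08 and 0.03. The 42 members not described singly by the naming rule had differences of -0.20 to 0.19 and a smallest unadjusted p of 0.139.

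The genes that work with P450s were read from lists, and none passed the adjusted threshold. Over all probe sets, 5.42% had an unadjusted p under 0.05 in limma, 2.91% higher and 2.5% lower. The lists are small, so 1 gene moves a list's share by much, and their counts are descriptions only. Of 7 measured electron donors and their helpers, 3 had higher and 4 lower means (median -0.01) and none an unadjusted p under 0.05. Of 18 nuclear receptors and coregulators, none was higher and 2 were lower at that p: Pparg, the fat cell receptor (-0.27), and Rarb, a retinoic acid receptor (-0.37). None of 12 heme synthesis and breakdown genes reached it (median 0.03). In steroidogenic partners, 1 of 11 did, Akr1c18, which inactivates progesterone. It read 6.08, 5.54, 5.22 and 4.81 in sham and 4.70, 4.82, 4.69 and 4.69 in exposed mice (-0.69 ± 0.22), and the groups overlapped only through sham mouse 4 and exposed mouse 2.

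Of 12 genes of epoxide and oxylipin handling, 11 had the lower mean in exposed mice (median -0.20). Over all probe sets, 50.5% had the higher mean in exposed mice. The list's mean log2 signal was 7.89, 7.95, 7.74 and 7.88 in sham and 7.66, 7.62, 7.99 and 7.54 in exposed mice. Exposed mouse 3 was thus the highest of all mice, and the other exposed mice lay below every sham mouse. The exception in the list was Ephx1, the microsomal hydrolase that opens P450-made epoxides. It read 8.23, 8.19, 7.84 and 8.55 in sham and 8.14, 9.49, 8.60 and 9.31 in exposed mice (0.68 ± 0.28), and exposed mice 2 and 4 read highest. Pla2g4a, the phospholipase that frees arachidonic acid, and Tbxas1, thromboxane synthase, had differences of -0.38 and -0.32. Of 21 conjugating enzymes, 11 had higher and 10 lower means (median 0.01). Only 2 had an unadjusted p under 0.05 in limma, both higher: the glutathione transferases Gsta3 (0.39 ± 0.10, no overlap) and Gstt2 (0.84 ± 0.32). For Gstt2 the groups overlapped through sham mouse 4 (8.56), and exposed mice 2 and 4 read highest (9.31 and 9.21). Gsta2, of the same enzyme class, had a difference of -0.63 ± 0.34. Of 9 P450s and P450-fold synthases outside the members, Cyp1a1 (0.36) and Cyp26c1 (0.22) were higher at that p. Tbxas1, counted in the oxylipin list too, was lower. Cyp1a1 read 4.35 to 5.21 over all mice, below the 25th percentile of 5.48, and Cyp26c1 read 5.27 to 5.61, around it.

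The tissue label held against its markers: 9 of 10 uterine genes lay at or above the array median, with a mean log2 signal of 8.76 to 9.31 in sham and 8.77 to 8.98 in exposed mice. Mean signals of luminal epithelium markers were 8.81 to 9.10 in sham and 8.08 to 8.84 in exposed mice, and those of smooth muscle were 10.60 to 11.00 and 10.28 to 10.85. Their part in the member values was not tested.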

How the data were processed

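Total RNA from 8 uteri (4 sham, 4 exposed) was labelled with biotin and hybridised to 1 array per mouse, per the labels' protocols. The authors deposited a single series table with log2 values for 22206 probe sets; that they are log2 was inferred from their span, 2.75 to 13.6. Per the submitters' processing notes the software was Partek, of unstated version, and the steps from scan to value, like the genome build, were not given in the sources used here. Sorted, the 8 columns are within 0.0198 of each other, so they were used as they stand, and a change shared by all genes would be hidden. No background level per probe set was used, so a low signal is not called absent. Precision is limited by having 4 arrays a group.

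Symbols came from the platform annotation (19572 probe sets with a symbol and 2634 without). limma 3.58.1 (lmFit and eBayes, under R 4.3.3) compared exposed with sham mice on every probe set, with Benjamini-Hochberg adjusted p-values over all of them, and gave the SE and 95% intervals. The script was tested on simulated data. Members named are the 12 of highest mean, the 12 of smallest p, the 6 of largest SD, the highest in each subfamily and a fixed list, 41 in all; dim ones are given by their range. Up to 4 genes of smallest p could be named per partner list. The members and lists were chosen with earlier results of these data known. Promoters were compared over 250 bases before each listed start, with shifts of up to 10 bases. Alternatives were signal filters (25th and 50th percentile), other moderation, scaling and weights, all probe sets of a gene, single mice left out and the replicate number as a block. Replicate numbers were not taken to pair the mice, since nothing in the labels ties them.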

Additional observations from a re-analysis of the deposited data

Results flagged for a closer look

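Of 108 groups of 4 readings, of named members and marker scores, 10 held a mouse whose distance from the nearest other mouse was above Dixon's 95% limit for 4 values, taken as a share of the group's range, and chance gives about 1 in 20.

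Among exposed mice this was exposed mouse 4 both times: 5.73 for Cyp2b23 against 5.41 to 5.44 in the others, and 7.10 for Cyp46a1 against 6.54 to 6.59. In the sham group, sham mouse 4 read 4.58 for Cyp3a11 against 5.01 to 5.07, and 4.83 for Cyp11b1 against 4.97 to 4.99. Sham mouse 2 read 8.53 for Cyp2d22 against 8.68 to 8.71, and 4.41 for Cyp2t4 against 3.99 to 4.04. Sham mouse 1 read 7.62 for Cyp4f37 against 7.77 to 7.79.

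The marker scores set apart were those of sham mouse 4 for oviduct and ciliated cells (6.16 against 6.42 to 6.45) and smooth muscle (10.6 against 10.95 to 11.00), and of sham mouse 3 for stroma (10.03 against 10.07 in each of the others).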

How the results depend on the processing

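No member and no listed partner gene passed an adjusted p under 0.05 under any alternative run for it. The number of members at an unadjusted p under 0.05, 5 over all probe sets, was 3 of 33 with the filter at the 25th percentile (9.09%, against 5.97% of all probe sets tested) and 2 of 16 with the filter at the 50th (12.5%, against 7.17%). It was 2 without sham mouse 2 (2.41%, against 3.27%) to 7 without exposed mouse 1 (8.43%, against 11.5%), and 3 without exposed mouse 2 or 4 (3.61%, against 3.69% and 3.87%).

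The number of members whose groups do not overlap, 2, was 1 with the filter at the 50th percentile (6.25%, against 3.41%) and 2 to 7 with single mice left out. It was 10 without exposed mice 1 and 2 (12.0%, against 17.7%) and 8 without exposed mice 2 and 4 (9.64%, against 12.2%). With fewer mice, groups overlap less often by construction. The median difference, 0.03, was 0.16 with the filter at the 50th percentile, which keeps the 16 brighter members, and 0.02 to 0.05 without single mice.

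Cyp4b1 turned to -0.0786 without exposed mice 2 and 4, which were its highest readings. For the 22 named members with a difference of at least its SE, that was the 1 change of sign in 396 refits. The other 19 have no settled direction, and 52 of their 342 refits had the other sign. Both totals include other moderation, the replicate block and the mean of all probe sets, which cannot move a member's difference. They also include median centring and quantile normalization, which hardly move it. The totals therefore make directions look steadier than the fits with mice left out do. With the replicate number as a block, the number of members at an unadjusted p under 0.05 was 3 (3.61%, against 5.74%). Deviations of same-numbered mice correlated at 0.08, -0.24, 0.09 and 0.08, so the numbers were not treated as pairs.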
